A study of Mus musculus with 4 samples.

Results

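The Fc gamma receptors and their relatives were examined as 6 genes of the mouse: Fcgr1, Fcgr3, Fcgr4, Fcer1g, Fcgr2b and Fcrls. Their probe sets were taken by gene symbol and not by signal, but the genes were chosen with earlier results of these data known. A probe set belonged to a gene when the array annotation gave that gene as its single symbol, and the brightest probe set stood for a gene with several. All 6 genes were found, each with 1 probe set, among 19938 genes measured. RNA was hybridised from bone marrow cells cultured with GM-CSF at 20 ng/ml, a growth factor under which marrow gives macrophages and dendritic-type cells. There were 4 groups of 1 array each, all on the B6 background: Bach1 (-/-) marrow with heme, Bach1 (-/-) marrow with vehicle, Bach1 (+/+) marrow with heme and Bach1 (+/+) marrow with vehicle. Heme was added at 40 µM (a unit given as µm in the labels) on day 6 of culture, the vehicle was 0.15 M NaCl with 10% NH4OH, and the cells still attached 24 hours later were lysed. Floating cells had been discarded, and the labels give neither the age of the mice nor how the Bach1 allele was made. Bach1 is a repressor of transcription that releases DNA when it binds heme.

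Fc gamma receptors bind the constant part of IgG and let macrophages take up antibody-coated particles and immune complexes. In mice, Fcgr1 encodes the high-affinity receptor CD64, and Fcgr3 and Fcgr4 encode activating receptors of lower affinity. These activating receptors signal through the common gamma chain encoded by Fcer1g, which carries a tyrosine-based activation motif (ITAM) and also serves several other receptors. Fcgr2b encodes the inhibitory receptor, whose own tyrosine motif (ITIM) recruits the phosphatase SHIP1, the product of Inpp5d. Fcrls encodes an Fc receptor-like protein that is known in mice as a marker of microglia.

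The promoter windows of the 3 genes that differed most between arrays are shown because these genes carry the differences described below. They are RefSeq sequences of build GRCm38.p6, from 250 bases before to 50 bases after the annotated start, on the gene's strand and written 5′ to 3′. Capitals mark matches to any of the 4 motifs described next. The Fcgr1 window is chr3:96293920-96294219 on the minus strand, the Fcgr4 window chr1:171018676-171018975 on the plus strand and the Fcrls window chr3:87263475-87263774 on the minus strand.
Fcgr1: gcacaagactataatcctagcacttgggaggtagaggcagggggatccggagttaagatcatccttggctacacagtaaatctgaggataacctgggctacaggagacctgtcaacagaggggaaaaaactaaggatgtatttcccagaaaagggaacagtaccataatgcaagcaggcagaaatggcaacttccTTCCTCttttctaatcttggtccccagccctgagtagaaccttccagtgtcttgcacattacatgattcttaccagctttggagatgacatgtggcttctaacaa
Fcgr4: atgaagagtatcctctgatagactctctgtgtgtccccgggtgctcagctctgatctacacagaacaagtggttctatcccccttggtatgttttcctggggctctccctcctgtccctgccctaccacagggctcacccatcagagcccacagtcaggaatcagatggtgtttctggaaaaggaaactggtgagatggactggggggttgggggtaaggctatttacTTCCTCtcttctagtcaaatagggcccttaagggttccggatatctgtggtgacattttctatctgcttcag
Fcrls: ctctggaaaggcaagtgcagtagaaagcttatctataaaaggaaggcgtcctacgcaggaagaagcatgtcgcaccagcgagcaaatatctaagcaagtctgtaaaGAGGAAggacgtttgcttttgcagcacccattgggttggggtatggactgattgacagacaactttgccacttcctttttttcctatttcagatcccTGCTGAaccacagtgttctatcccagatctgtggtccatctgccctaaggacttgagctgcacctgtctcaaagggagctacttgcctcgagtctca

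The motifs were searched on both strands of the windows of all 6 genes, for which the table held 7 windows. The core of PU.1 (GAGGAA), a factor of myeloid cells, was present for 4 genes: at positions -55 to -50 of Fcgr1, -22 to -17 of Fcgr4, -144 to -139 of Fcrls and, in the first of its 2 windows, -6 to -1 of Fcgr3. It was present in 28.3% of all 32851 promoter windows. The short Maf element (TGCTGA) was present in Fcrls at -47 to -42 and in Fcgr3, and in 19.5% of all windows. The antioxidant response element (TGACNNNGC, 12.4% of windows) and the AP-1 site (TGANTCA, 7.81%) had no match in the 7 windows. No 2 matches overlapped. A match is a description of these letters and not a binding site.

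Median signals of the arrays lay between 30.4 and 31.4, and log2 signals of any 2 arrays correlated across probe sets with r of 0.975 to 0.981. Each group is 1 array, so differences could not be set against replicate spread and no significance test was run. Genes were called higher or lower from a 2-fold difference upward, provided that the brightest array compared had a signal of at least 31.0, the median over all arrays and probe sets ("at level"). The robust SD of the log2 difference over all genes at level lay between 0.25 and 0.28 in the 4 pairwise comparisons. It mixes technical and real differences and serves as a scale. The targeted gene did not separate the labels: Bach1 read 204 (heme) and 211 (vehicle) on the arrays labelled knockout, and 264 (heme) and 212 (vehicle) on the wild-type arrays. No label says whether its probes lie in the deleted part, and the arrays are therefore called labelled knockout. Hmox1, a gene that Bach1 is known to repress, read 9047 in labelled knockout vehicle and 1827 in wild-type vehicle.

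Macrophage markers were present: 7 of 8 listed were measured, all 7 were at level, and Lyz2, the lysozyme gene, read between 9990 and 10705. The summed signal of those 7 was 17760 (heme) and 17931 (vehicle) in the labelled knockout and 16694 (heme) and 17480 (vehicle) in wild type, and Lyz2 made up most of it. Among the 7, C1qa was at least 2-fold lower with heme in wild type (-2.12 on the log2 scale) and lower in the labelled knockout in vehicle (-2.80), and Mertk differed by -0.33 with heme in the labelled knockout and -0.61 in wild type. None of the markers of mast cells and basophils, of B cells or of T and NK cells reached the level on any array, with 10, 6 and 8 measured. The 8 markers of dendritic cells summed to 2380 (heme) and 2910 (vehicle) in the labelled knockout against 6749 (heme) and 8554 (vehicle) in wild type. Cd74 and H2-Aa, genes of MHC class II and its invariant chain, made up most of each sum. Of the 8, 5 were at level and 4 of those at least 2-fold lower in the labelled knockout in each medium: Cd74, H2-Aa, H2-Eb1 and Ccr7. Itgax, the 5th at level, differed between genotypes by -0.44 with heme and -0.46 in vehicle. Flt3, Zbtb46 and Dpp4 were below the level on all arrays. A difference in class II genes and one in dendritic cells were not told apart. The summed signal of 10 neutrophil markers was higher with heme, at 9692 with heme and 7234 in vehicle in the labelled knockout. In wild type it was 12402 with heme and 9078 in vehicle. S100a8 and S100a9 made up most of each sum, with log2 differences with heme of 0.40 to 0.45. Not all the markers moved alike: in the labelled knockout Mpo was at -0.19 and Camp at 0.09. At 2-fold, heme cultures were higher for 0 of the 9 at level in the labelled knockout and for 3 of 8 in wild type. The markers did not move alike between genotypes either. In vehicle 1 of 9 was 2-fold higher in the labelled knockout, Retnlg (1.36), and with heme 1 was 2-fold lower, Cxcr2 (-1.22). The medians at level were -0.36 with heme and 0.18 in vehicle. Of 6 eosinophil markers, 4 were at level, and the list summed to 658 (heme) and 915 (vehicle) in the labelled knockout and 1409 (heme) and 1366 (vehicle) in wild type. Prg2 made up most of each sum. Between genotypes 0 of the 4 reached 2-fold in vehicle. With heme in both cultures 2 were lower in the labelled knockout, Prg2 (-1.27) and Epx (-1.12), while Siglecf was at -0.20. Fewer cells of a type and less RNA per cell cannot be told apart in such bulk samples. The part of these cell types in the differences below was not tested.

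Among the activating receptors, Fcgr1 was the gene with a single array above the others. Its signal was 59.7 in labelled knockout heme, 84.7 in labelled knockout vehicle, 83.3 in wild-type heme and 237 in wild-type vehicle. The wild-type vehicle array was 2.80-fold above the next brightest, and the other 3 arrays lay close together. Fcgr1 was 2.85-fold lower with heme in wild type (log2 difference -1.51), which ranked 20th from the lowest of 10772 genes at level. In vehicle it was 2.80-fold lower in the labelled knockout than in wild type (-1.48). Both of these differences use the wild-type vehicle array. Without that array, Fcgr1 was 1.42-fold lower with heme in the labelled knockout (-0.51) and 1.40-fold lower in the labelled knockout with heme in both cultures (-0.48), neither at 2-fold.

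Fcgr4 had the opposite order of genotypes. Its signal was 298 in labelled knockout heme, 403 in labelled knockout vehicle, 118 in wild-type heme and 170 in wild-type vehicle. Both arrays labelled knockout lay above both wild-type arrays. The gene was 2.54-fold higher in the labelled knockout with heme in both cultures (log2 difference 1.34, 13th from the highest of 10790 genes) and 2.37-fold higher in vehicle (1.24, 26th from the highest of 10859 genes). These comparisons share no array. With heme, Fcgr4 was lower by less than 2-fold in both genotypes, by 1.35-fold in the labelled knockout (-0.43) and by 1.45-fold in wild type (-0.54).

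Fcgr3 differed little between genotypes. It read 1783 in labelled knockout heme, 2083 in labelled knockout vehicle, 1777 in wild-type heme and 2168 in wild-type vehicle. Both heme arrays lay below both vehicle arrays, 1.17-fold lower in the labelled knockout (-0.22) and 1.22-fold lower in wild type (-0.29), which is within about 1 robust SD of all genes. Fcer1g, the shared signalling chain, read 5001 in labelled knockout heme, 5342 in labelled knockout vehicle, 5094 in wild-type heme and 5469 in wild-type vehicle. Its whole range over the 4 arrays was 1.09-fold.

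The inhibitory receptor Fcgr2b read 770 in labelled knockout heme, 852 in labelled knockout vehicle, 863 in wild-type heme and 882 in wild-type vehicle. Its range was 1.14-fold, and its log2 differences between arrays in the 4 pairwise comparisons lay between -0.16 and -0.03. Mouse Fcgr2b and Fcgr3 are close relatives in sequence, and cross-hybridisation between the probe sets of the family was not tested. Fcgr3, Fcer1g and Fcgr2b lie on chromosome 1 with Fcgr4 in the RefSeq gene table, and the ranges of these 3 genes were at most 1.22-fold, against 3.43-fold for Fcgr4.

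Fcrls had the widest range of the 6 genes, 8.73-fold. Its signal was 39.1 in labelled knockout heme, 76.7 in labelled knockout vehicle, 135 in wild-type heme and 341 in wild-type vehicle. Both arrays labelled knockout lay below both wild-type arrays, and within each genotype the heme array was the dimmer. In vehicle Fcrls was 4.45-fold lower in the labelled knockout (log2 difference -2.15), the 9th lowest of 10859 genes at level, and with heme in both cultures 3.44-fold lower (-1.78), the 19th lowest of 10790. With heme it was 1.96-fold lower in the labelled knockout (-0.97), just short of the 2-fold rule, and 2.54-fold lower in wild type (-1.34). The labelled knockout heme signal was not far above the median of all values, 31.0, and how far it lies above background is unknown.

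**Figure D1:**
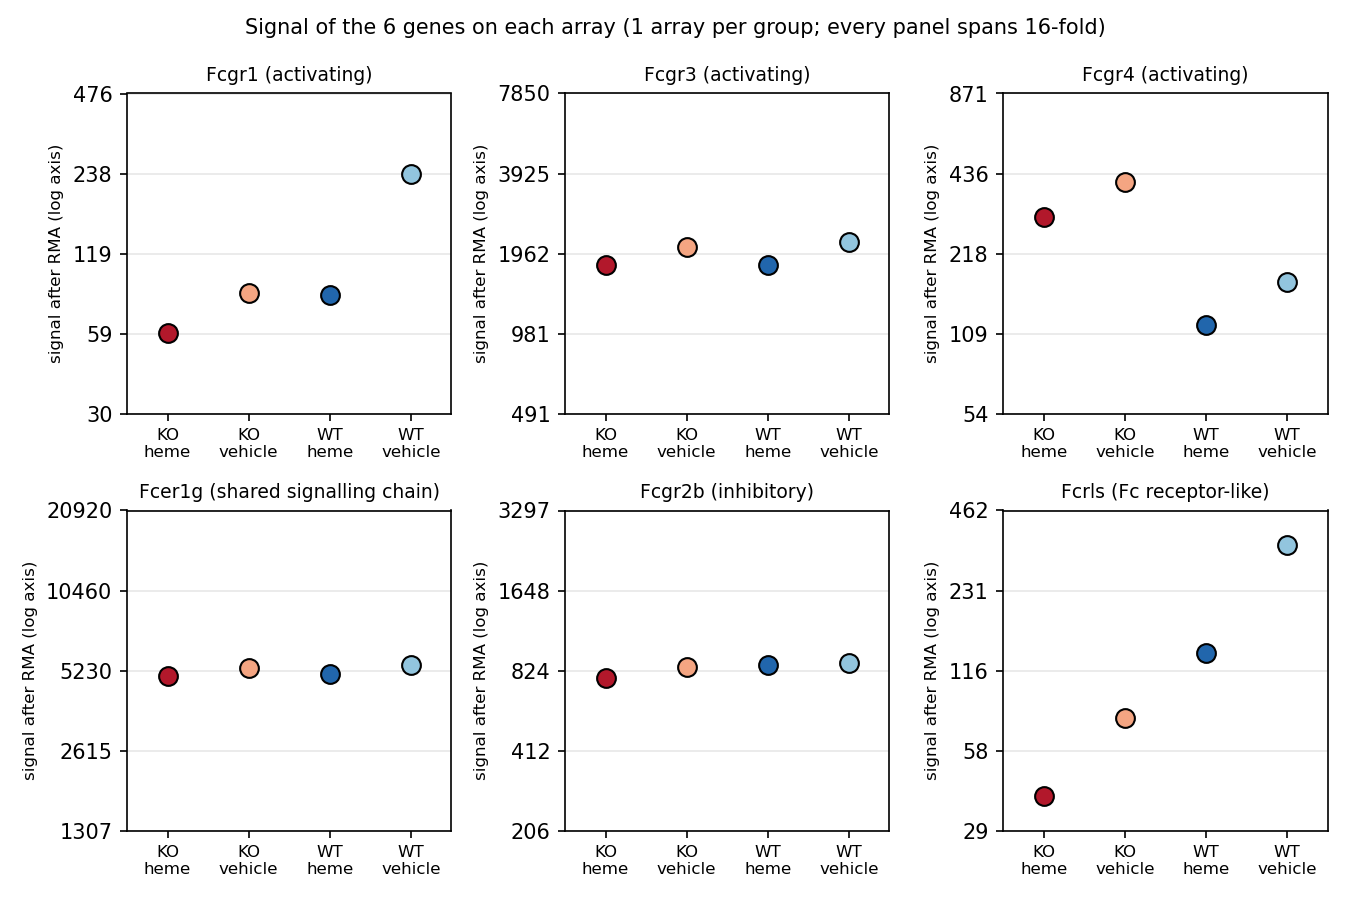
Signal after RMA (log axis, linear units) of each of the 6 genes on the labelled knockout (KO) and wild-type (WT) arrays with heme or vehicle, 1 point per array and no error bars since each group has 1 array; every panel has the same height in log2 units, so slopes can be compared but levels of different genes cannot. Fcgr1 stands high on the WT vehicle array alone, Fcgr4 is higher on both KO arrays, Fcrls is lower on both, and Fcgr3, Fcer1g and Fcgr2b range over at most 1.22-fold.

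Heme cultures were compared with vehicle cultures within each genotype to see the receptors' responses in the labelled knockout and in wild type. These comparisons share arrays with the genotype comparisons that follow. In the labelled knockout 0 of the 6 genes reached 2-fold, where 0.452% of 10843 genes at level were lower by that rule and 1.2% higher (1.65% in all). The median log2 difference of the 6 was -0.33, against 0.02 over all genes at level. In wild type 2 of the 6 were at least 2-fold lower, Fcgr1 and Fcrls, and 0 higher, where 0.891% of 10772 genes were lower and 1.17% higher (2.06% in all), and the median was -0.41 against -0.01. All 6 signals were lower with heme in both genotypes, while 47.5% of all genes at level were lower in the labelled knockout and 51.3% in wild type. The sign of Fcgr2b in wild type turned with lowess centring of the log2 ratio, to 0.02.

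The labelled knockout was then compared with wild type within each medium. With heme in both cultures, 1 of the 6 genes was higher at 2-fold, Fcgr4, and 1 lower, Fcrls, where 0.519% of 10790 genes were higher and 0.973% lower (1.49% in all). In vehicle, Fcgr4 was again higher and 2 were lower, Fcgr1 and Fcrls, where 0.525% of 10859 genes were higher and 1.14% lower (1.67% in all). The medians of the 6 were -0.10 with heme and -0.05 in vehicle, with members on both sides of 0. The small genotype differences of Fcgr3, Fcer1g and Fcgr2b in vehicle turned sign after repeated quantile normalization and with lowess centring.

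The difference between the heme responses passed 2-fold for Fcgr1 alone among the 6 and by a narrow margin, a ratio of 2.01, the response of the labelled knockout being the smaller in size. Of 11155 genes at level on any array, 1.17% were 2-fold higher in this difference of responses and 0.879% lower (2.04% in all). Fcgr1 missed 2-fold after quantile normalization was applied again (0.94), after lowess centring (0.96) and with 32 added to each value (0.87). The values of the other 5 genes were 0.37 for Fcrls, 0.10 for Fcgr4, 0.06 for Fcgr3, 0.01 for Fcer1g and -0.11 for Fcgr2b. The response of Fcgr4 to heme differed between genotypes by 1.07-fold, although its signal differed between genotypes by more than 2-fold in each medium.

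**Figure D2:**
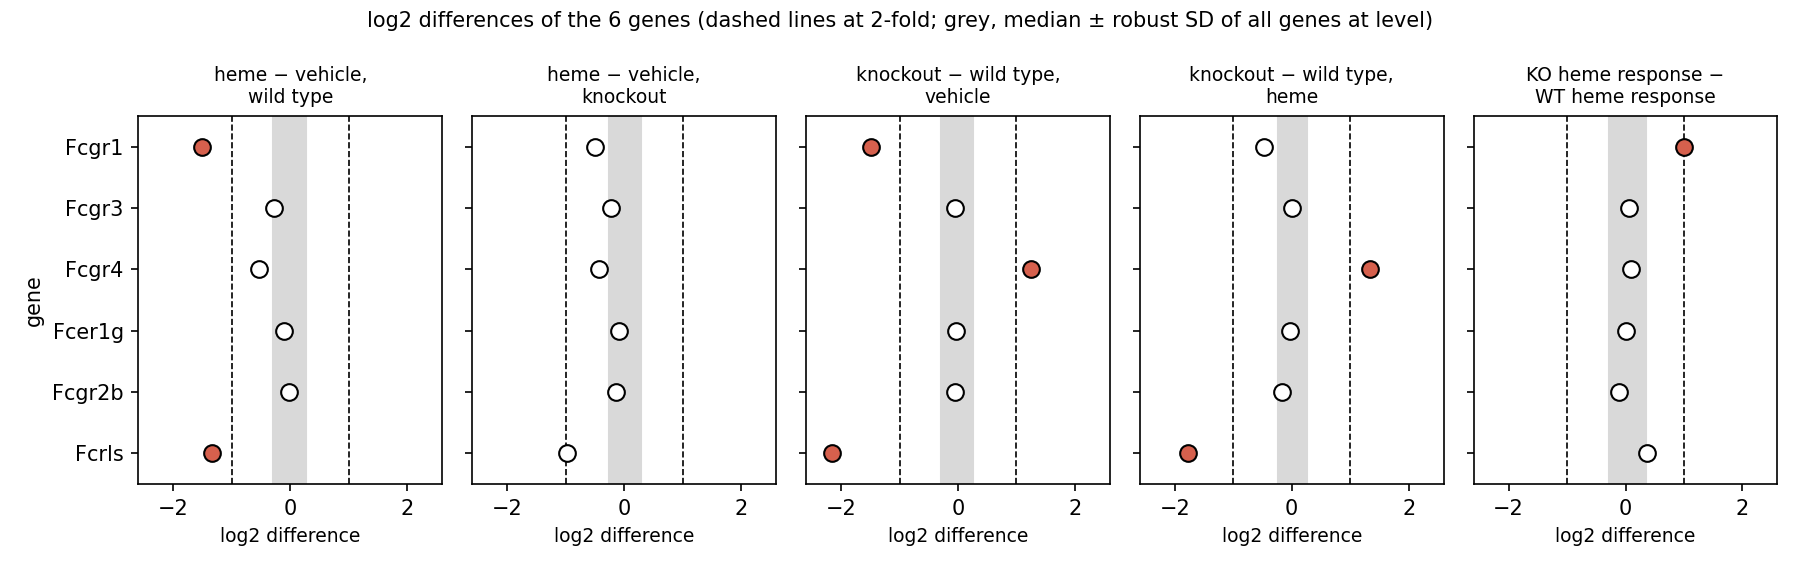
Log2 differences (x axis) of the 6 genes (y axis) in the 4 pairwise comparisons and in the difference between the heme responses; filled points passed the 2-fold rule, dashed lines mark 2-fold, and the grey band is the median ± 1 robust SD of all genes at level. Fcgr4 is at 1.34 (heme) and 1.24 (vehicle) in the genotype comparisons, Fcrls at -1.78 and -2.15, and Fcgr1 at -0.48 and -1.48.

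The balance of activating and inhibitory receptors was followed as the mean log2 difference of Fcgr1, Fcgr3 and Fcgr4 minus that of Fcgr2b, which sets no probe set's level against another's. With heme it was -0.24 in the labelled knockout (activating -0.39, inhibitory -0.15) and -0.75 in wild type (-0.78 and -0.03). Between genotypes it was 0.45 with heme in both cultures (0.29 and -0.16) and -0.05 in vehicle (-0.10 and -0.05). In vehicle, the higher Fcgr4 and the lower Fcgr1 of the labelled knockout nearly cancelled in this mean. The value describes 3 genes that did not move together and has no replicate error.

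Likeness of profiles was measured as the Euclidean distance between log2 signals centred on each gene's mean over the 4 arrays, over 11154 other genes at level. Over only 4 arrays such likeness is a description. Among the members, Fcer1g and Fcgr2b were closest, at a distance of 0.10, and Fcgr4 and Fcrls farthest, at 3.33. The 5 genes nearest to Fcgr1 were Klra17 (0.22), Ly86, which encodes the MD-1 partner of the Toll-like receptor relative RP105 (0.27), the small GTPase gene Mras (0.39), the complement gene C1qb (0.42) and Ms4a4a (0.44). Klra17 and Ms4a4a were at level on the wild-type vehicle array alone, at 37.8 and 35.7, and read at most 13.9 and 18.8 on the other arrays, so they entered the search only through the array where they are high. Ly86 read 176 in labelled knockout heme, 278 in labelled knockout vehicle, 240 in wild-type heme and 598 in wild-type vehicle, again with a single bright array.

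The genes nearest to Fcgr4 were the fatty acid binding protein gene Fabp7 (0.11), the chemokine-binding receptor gene Ccrl2 (0.12), Srsy (0.21), the leukotriene C4 synthase gene Ltc4s (0.24) and Rnf144b (0.40). Ltc4s read 252 in labelled knockout heme, 311 in labelled knockout vehicle, 114 in wild-type heme and 153 in wild-type vehicle. The genes nearest to Fcrls were C1qc, a chain of the complement protein C1q (0.27), the semaphorin gene Sema6d (0.47), Ccn3 (0.53), Nrep (0.65) and Klk1b9 (0.66). C1qc read 103 in labelled knockout heme, 170 in labelled knockout vehicle, 295 in wild-type heme and 911 in wild-type vehicle, the same order of arrays as Fcrls.

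**Figure D3:**
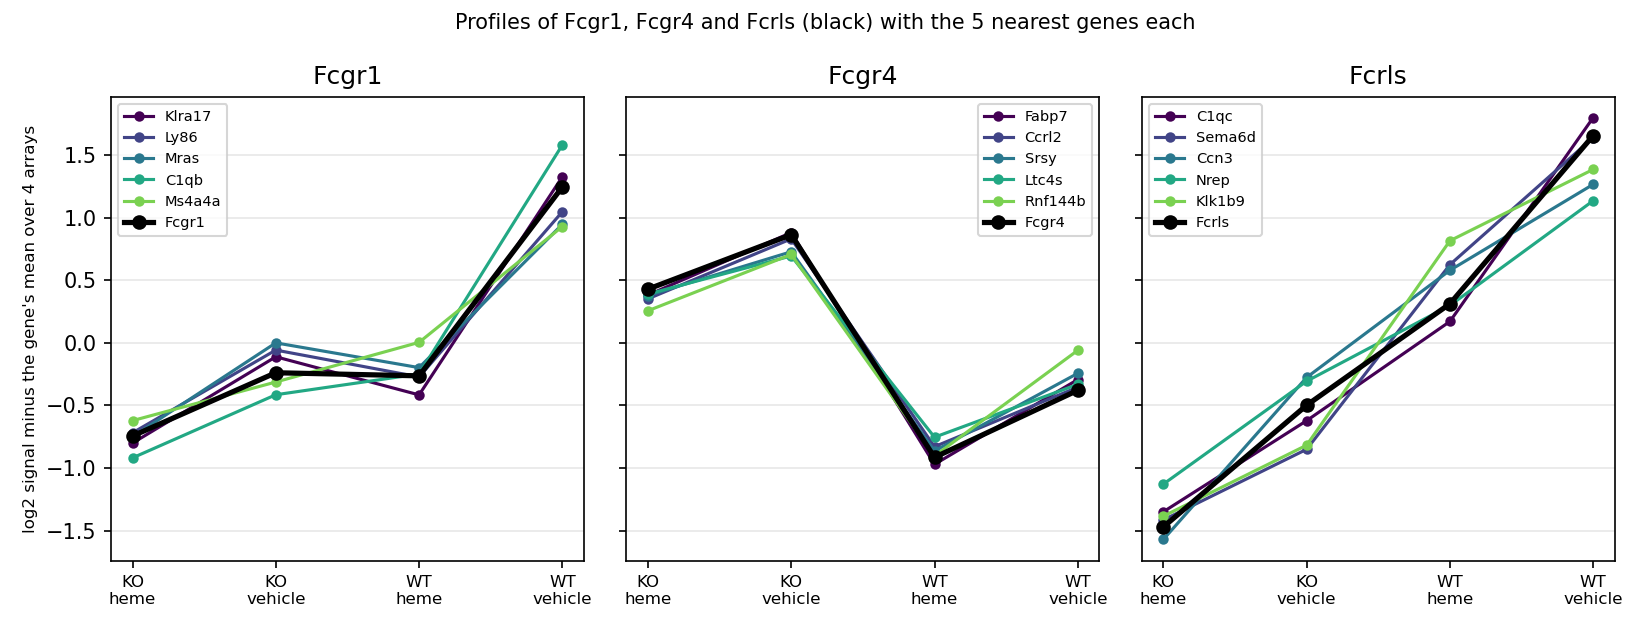
Log2 signal minus each gene's mean over the 4 arrays (y axis) on the KO and WT arrays with heme or vehicle (x axis), for Fcgr1, Fcgr4 and Fcrls (black) and the 5 genes nearest to each (colours); lines join arrays only to guide the eye. The genes were chosen for this likeness, so the shared shape is not a finding: a single high WT vehicle array for Fcgr1, both KO arrays higher for Fcgr4, and a lowest KO heme and highest WT vehicle array for Fcrls.

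Other Fc receptors were mostly dim. Of 13 listed, 12 were measured and 2 were at level, and neither differed by 2-fold in any comparison. These were Fcrlb, a relative kept inside the cell, which read 45.1 (heme) and 61.5 (vehicle) in the labelled knockout and 49.4 (heme) and 49.9 (vehicle) in wild type, and Trim21, a receptor for antibody in the cytosol, which read between 46.6 and 70.0. The chains of the high-affinity IgE receptor that pair with Fcer1g in mast cells, Fcer1a and Ms4a2, were below the level on all arrays.

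The signalling genes below the activating receptors showed few differences. Of 25 listed, 23 were measured and at level, and with heme 0 were higher or lower at 2-fold in either genotype, with medians of 0.00 in the labelled knockout and -0.07 in wild type. Syk, the kinase that binds the phosphorylated activation motif, read 515 (heme) and 608 (vehicle) in the labelled knockout and 486 (heme) and 524 (vehicle) in wild type. The Src-family kinase gene Fgr was higher with heme by 0.58 on the log2 scale in the labelled knockout and by 0.51 in wild type. Between genotypes, 1 gene was 2-fold lower, Malt1, whose product acts in a complex with the adaptor Card9: its log2 difference was -1.29 with heme in both cultures and -1.16 in vehicle. Fyn, another Src-family kinase gene, was lower by 0.96 with heme in both cultures and read 31.1 on the brighter array, at the edge of the level.

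Among 18 inhibitory phosphatases, adaptors and receptors with inhibitory motifs, all at level, 1 was 2-fold higher with heme in each genotype, the sialic acid receptor gene Siglece, which read 136 with heme and 51.1 in vehicle in the labelled knockout, and 118 with heme and 55.4 in vehicle in wild type. Inpp5d, the phosphatase recruited by Fcgr2b, read 491 (heme) and 415 (vehicle) in the labelled knockout and 490 (heme) and 519 (vehicle) in wild type. Between genotypes 0 of the 18 reached 2-fold. In the difference of the heme responses 1 did, the adaptor gene Dok1 (1.11).

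Receptors that pair with Fcer1g or its relative Tyrobp included several at 2-fold, while neither chain reached it. Of 18 listed, 15 were measured and 11 were at level. Clec4e, which encodes the receptor Mincle and signals through Fcer1g, read 395 with heme and 156 in vehicle in the labelled knockout, and 661 with heme and 184 in vehicle in wild type. In each genotype 2 of the 11 were at least 2-fold higher with heme: Clec4e (1.34) and Trem1 (1.13) in the labelled knockout, and Clec4e (1.84) and Clec4d (1.19) in wild type. Tarm1, a receptor that pairs with Fcer1g, was lower in the labelled knockout with heme in both cultures (-1.77, with signals of 402 and 1369) and in vehicle (-1.75, with signals of 209 and 702). Trem1 was also lower in vehicle (-1.04). Tyrobp itself read between 3469 and 4376 on the 4 arrays.

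The actin and oxidase machinery of phagocytosis showed few differences at 2-fold, with 26 of 29 listed genes measured and at level. In all comparisons 1 gene reached 2-fold, Marcksl1, which was higher with heme in wild type (1.19) and by 0.67 in the labelled knockout. Cybb, the membrane subunit of the phagocyte oxidase, read 3802 (heme) and 2744 (vehicle) in the labelled knockout and 2792 (heme) and 2352 (vehicle) in wild type. Of 12 genes grouped as other phagocytic receptors, a name that does not suit all of them, 11 were at level and 0 reached 2-fold in any comparison.

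Interferon-gamma-responsive genes were followed because Fcgr1 is one. Of 21 listed, 17 were measured. With heme, 0 reached 2-fold in the labelled knockout, and in wild type 1 of 11 at level was lower, Gbp3 (-1.07), with medians at level of 0.07 in the labelled knockout and 0.05 in wild type. Between genotypes, with heme in both cultures 1 of 12 was lower, Ciita, the regulator of MHC class II genes (-1.11). In vehicle 2 of 11 were lower, Ciita (-1.45) and the GTPase gene Gbp7 (-1.26), with a median at level of -0.23 against -0.02 over all genes at level. Gbp7 read 74.6 in labelled knockout heme, 65.3 in labelled knockout vehicle, 93.4 in wild-type heme and 156 in wild-type vehicle. Its brightest array was that of Fcgr1, as for Ciita, Gbp3 and Irf8. The other genes at level peaked elsewhere. Irf1 and Cxcl10 were brightest in labelled knockout heme, and Socs1, Tap1, Psmb8, Psmb9, Irgm1 and Cd274 in wild-type heme. A link of Fcgr1 to interferon gamma was not tested. Irf1 read between 62.1 and 97.5.

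Of 23 regulators of Fc receptor transcription and their receptors, 21 were measured and 19 at level. Spi1, the gene of PU.1, read 650 (heme) and 601 (vehicle) in the labelled knockout and 727 (heme) and 747 (vehicle) in wild type. The interferon-gamma receptor gene Ifngr1 was lower by 0.43 on the log2 scale in the labelled knockout in vehicle. Tgfbr1, a TGF-beta receptor gene, was 2-fold lower with heme in the labelled knockout (-1.01) and lower by 0.99 in wild type. Between genotypes 0 of the 19 reached 2-fold.

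The list of microglia and resident macrophage genes contains the genes known to accompany Fcrls in brain, of which 17 of 18 were measured and 13 at level. The microglial genes P2ry12 and Sall1 were below the level on all arrays, while Tmem119 was at level at 66.9 to 88.9. With heme 0 of 13 reached 2-fold in the labelled knockout, and 5 were lower in wild type (C1qa, C1qb, C1qc, Slco2b1 and Apoe), with medians at level of -0.30 in the labelled knockout and -0.61 in wild type. In vehicle 3 were lower in the labelled knockout than in wild type, C1qa (-2.80), C1qc (-2.42) and C1qb (-2.00), and 0 higher. With heme in both cultures, C1qc was lower (-1.52) and Slco2b1, an organic anion transporter gene, higher (1.14). Slco2b1 read 59.4 in labelled knockout heme, 102 in labelled knockout vehicle, 27.0 in wild-type heme and 101 in wild-type vehicle. Its difference here and its fall with heme in wild type both use the wild-type heme array, which was below the level. In vehicle its genotype difference was 0.01. Tmem119 had log2 differences between genotypes of 0.34 with heme and 0.30 in vehicle, so that Fcrls and Tmem119 lay on opposite sides of 0. These Tmem119 values are not far above the robust SD of all genes, 0.25 with heme and 0.27 in vehicle. P2ry12, below the level, was at -0.10 with heme and -1.51 in vehicle. Sall1, also below it, was at 0.42 and 0.13 in the same order. Over the 9 lists and 4 pairwise comparisons, the other medians at level lay between -0.30 and 0.22, where those of all genes at level lay between -0.02 and 0.02.

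**Figure D4:**
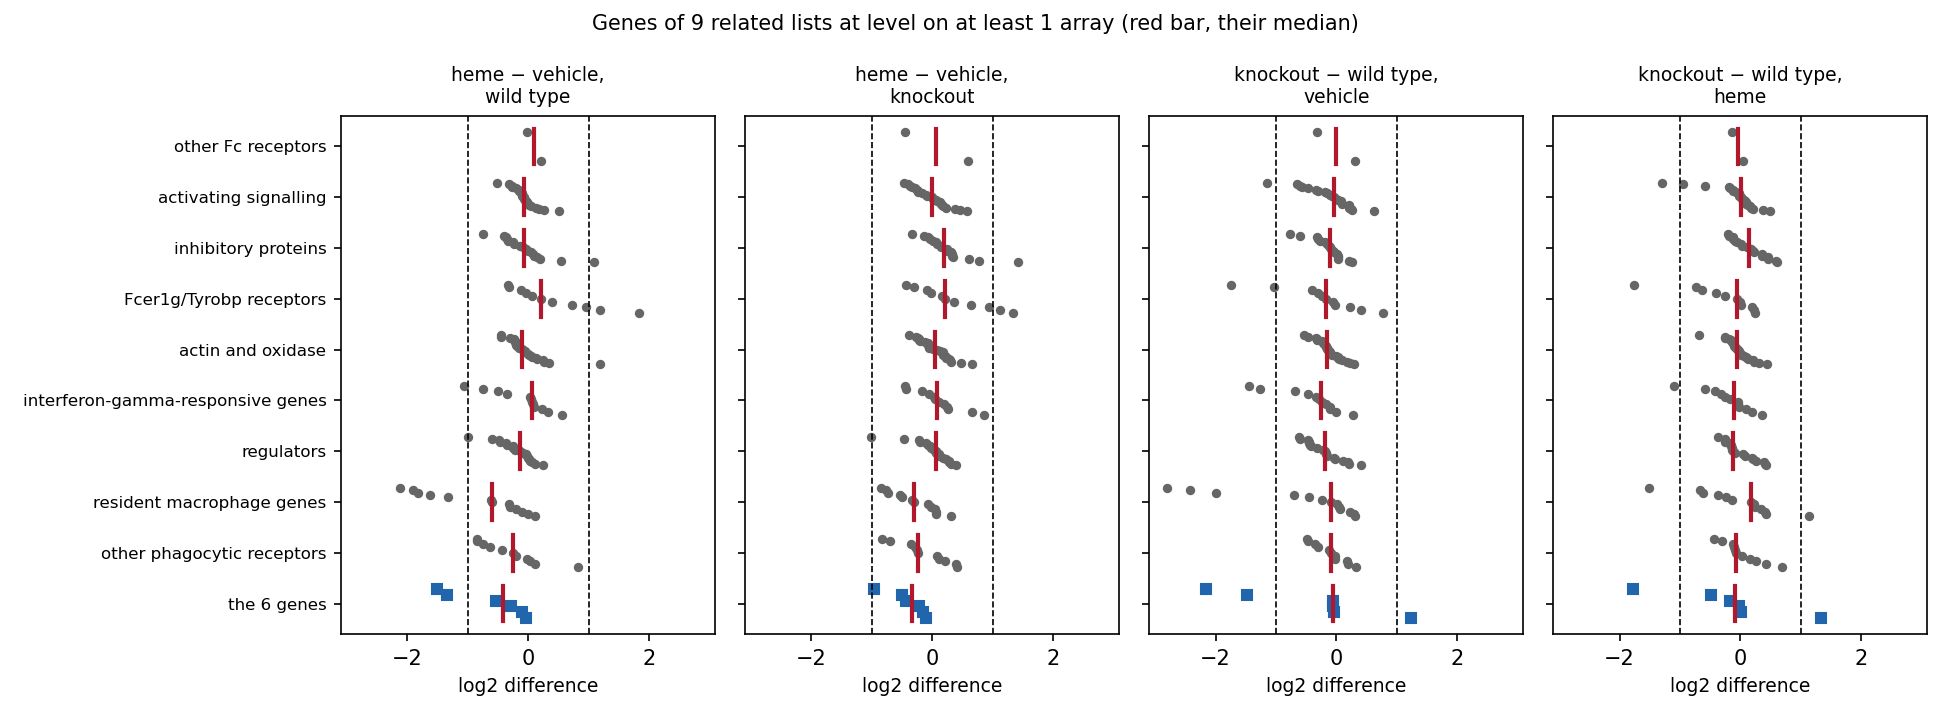
Log2 differences (x axis) in the 4 pairwise comparisons of the genes of 9 related lists that were at level on at least 1 array (grey points, 1 per gene, ordered by value within a row), with their median (red bar), above the 6 members (blue squares); dashed lines mark 2-fold. The medians of the genes at level lie between -0.30 and 0.22, apart from that of resident macrophage genes with heme in wild type, at -0.61.

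Genes that neighbour the members on the chromosome were set beside them. Within 0.2 Mb of a member's midpoint in the RefSeq gene table lay 36 other measured genes, 22 on chromosome 1 and 14 on chromosome 3. With heme 0 of them reached 2-fold in either genotype. Between genotypes 0 reached it with heme in both cultures, and in vehicle 1 of 24 at level was lower, the histone gene H3c15 (-1.36), which read 14.2 in the labelled knockout and 36.4 in wild type. In the difference of the heme responses 2 were higher, H3c15 (1.39) and the UFM1-conjugating enzyme gene Ufc1 (1.05). H3c15 was at level on the wild-type vehicle array alone, and both of its differences use that array. It read 26.3 in labelled knockout heme and 25.9 in wild-type heme. The medians of the neighbours at level lay between -0.01 and 0.03.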

How the data were processed

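The authors deposited linear intensity values after RMA, per the submitters' processing notes. Per the labels' protocols, biotin-labelled cRNA was made with the Ovation PicoSL kit. The design text of the series describes other cells, so the labels were followed. The values were taken to log2 with no further scaling, and differences between arrays were formed. In the annotation used here 21789 probe sets had a single gene symbol, 1621 several and 12146 none listed. Each of the 4 groups held 1 array, which limits precision, and no significance test was run. The members, lists and rules were chosen with earlier results of these data known. Named genes were the 6 members, the list genes with the largest differences, the 5 nearest profiles of members with a log2 range of at least 1, and neighbours at 2-fold. Beyond that rule, genes such as Syk, Fgr, Fyn, Inpp5d, Tyrobp, Cybb, Irf1, Spi1, Ifngr1, Tmem119 and Lyz2 were named for their known roles with their values in view. Some list entries and 1 promoter motif are not reported here. Proteins of the members were not used here. The alternatives tried were a call threshold of 1.5-fold or 3-fold, a level at the 75th percentile (a signal of 106) or none, repeated quantile normalization, lowess centring (span 0.3), 32 added to each value, and the mean or dimmest of a gene's probe sets. The code that makes the calls was tested on simulated data. Calculations ran in Python 3.11.15 with pandas 2.3.3, numpy 2.4.6 and, for lowess, statsmodels 0.14.6. Figures were drawn with matplotlib 3.10.9.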

Additional observations from a re-analysis of the deposited data

Results flagged for a closer look

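The genotype difference of Fcgr3 had opposite signs in the 2 media: 0.01 on the log2 scale with heme in both cultures and -0.06 in vehicle, a difference of 0.0623 that was not tested and is small beside the robust SD of all genes. The vehicle value turned to 0.07 after repeated quantile normalization and 0.01 with lowess centring. The activating minus inhibitory change between genotypes was 0.45 with heme in both cultures and -0.05 in vehicle, which differ by 0.50, and this difference was not tested. C1qa, a chain of C1q in the resident macrophage list, had a heme response of 0.06 in the labelled knockout and -2.12 in wild type. These responses differ by 2.18 and were not tested against each other. C1qa read 31.9 with heme and 30.6 in vehicle in the labelled knockout, both close to the level. In wild type it read 48.9 with heme and 213 in vehicle. A fall with heme from so low a vehicle signal may not be measurable, so these values do not tell whether the responses differ.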

How the results depend on the processing

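No paired analysis was possible because each group held 1 array. Of 150 values of the 6 members under the 5 alternatives to the values, 146 kept their side of 2-fold. The choice of probe set could not change a member, since each has 1. The values under the mean and the dimmest probe set were therefore fixed in advance, although they are counted in the 146. No array could be left out, since each group would then be empty. The 4 that did not were Fcgr1 in the difference of the heme responses, named above, and Fcrls with heme in the labelled knockout, at 2.00-fold after repeated quantile normalization. Signs turned in 10 of the 150, none of them a difference at 2-fold. Counts of members at 2-fold became, at 3-fold, 0 for heme in wild type, 1 for each genotype comparison and 0 for the difference of responses; at 1.5-fold, 1 for heme in the labelled knockout; and after repeated quantile normalization, 1 for heme in the labelled knockout and 0 for the difference of responses, which was also 0 with lowess centring and with 32 added. The activating minus inhibitory change moved by less than 1 robust SD in all 25 values, and the list medians in all 225. The 25 include those under the mean and the dimmest probe set, which could not move. Counts over lists and all genes were added as results after seeing the data. Of all genes, 179 were at 2-fold with heme in the labelled knockout, with 878 at 1.5-fold, 27 at 3-fold, 116 at the 75th percentile level and 72 with 32 added. In wild type the counts were 222, 1046, 49, 137 and 87 in the same order. Between genotypes they were 161, 735, 33, 88 and 61 with heme, and 181, 821, 44, 103 and 72 in vehicle. For the difference of responses they were 228, 1273, 33, 56 and 34, and 366 with no level filter. With 32 added the split was 12 higher and 49 lower, in place of 56 and 105, between genotypes with heme, and 13 and 21, in place of 130 and 98, for the difference of responses. Of the 155 list genes, 4 were at 2-fold for heme in the labelled knockout (17 at 1.5-fold, 0 at 3-fold and 2 with 32 added) and 10 in wild type (23 at 1.5-fold, 5 at 3-fold). Between genotypes there were 5 with heme (16 at 1.5-fold, 1 at 3-fold, 3 at the 75th percentile level and 3 with 32 added) and 8 in vehicle (18, 4 and, with 32 added, 5). For the difference of responses there were 4 (13, 1, 2 and 2 in the order of the comparison with heme). The cause was not tested, apart from the stricter or wider rules themselves. Signals carry no background call, so the reliability of low values is unknown.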

Other observations

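The genes listed above as other phagocytic receptors differed with heme by less than 2-fold in both genotypes. Not all of them are phagocytic receptors or receptors for opsonins, and those named here were picked after their values were seen. Itgax, the CD11c integrin chain, read 547 with heme and 972 in vehicle in the labelled knockout, and 741 with heme and 1340 in vehicle in wild type, log2 differences of -0.83 in the labelled knockout and -0.86 in wild type. C3ar1, the receptor for the complement fragment C3a, had differences of -0.69 in the labelled knockout and -0.74 in wild type. Other genes of the list differed in size between genotypes. Mrc1, the mannose receptor gene, was at -0.36 in the labelled knockout and -0.86 in wild type, and Clec7a, the gene of the beta-glucan receptor Dectin-1, at -0.25 and -0.63 in the same order. The complement regulator gene Cr1l was at 0.12 in the labelled knockout and -0.43 in wild type. Cd14, the co-receptor for endotoxin, was at 0.41 in the labelled knockout and 0.83 in wild type. These differences between genotypes were not tested.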
